A study of Mus musculus with 26 samples.

Results

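Txnip and the arrestin domain-containing genes Arrdc1, Arrdc2, Arrdc3 and Arrdc4 were followed across heat, oxidative and osmotic stress in NIH3T3 cells, an established immortal line of mouse embryonic fibroblasts. The members were taken by gene symbol, and all 5 had a row among the 20430 genes of the RNA tables and the 19941 genes of the ribosome footprint tables. PolyA-selected RNA was sequenced in 16 libraries of 8 groups. The heat experiment had an unstressed control, 44 °C for 2 h and 42 °C for 8 h. The other experiment had an unstressed control shared by both chemical stresses, H2O2 (oxidative stress) for 2 h and 7 h, and KCl (osmotic stress) for 2 h and 7 h. Ribosome footprints, the mRNA fragments covered by translating ribosomes, were sequenced in 10 libraries of the control, H2O2 and KCl groups. Each group had 2 replicate libraries. The labels name H2O2 and KCl with their times, and their concentrations were not given in the sources used here.

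Alpha-arrestins are adaptor proteins that recruit NEDD4-type ubiquitin ligases to membrane proteins and so direct these cargoes to endocytosis and degradation. Txnip, the thioredoxin-interacting protein, binds reduced thioredoxin and promotes the uptake of the glucose transporters GLUT1 and GLUT4 from the cell surface. Its transcription is driven by MondoA (gene Mlxip) with its partner Mlx in response to glucose phosphates, and its protein is short-lived. Arrdc1 recruits ESCRT machinery to the plasma membrane and drives the release of microvesicles, Arrdc3 acts on integrin beta 4, and Arrdc4 is a further target of MondoA.

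Libraries held 24441877 to 45244430 counts for RNA and 1460751 to 5168537 for footprints. Of 6 fibroblast markers (Col1a1, Col1a2, Col3a1, Vim, Thy1, Pdgfrb), 5 stayed above 10 TPM (a level corrected for transcript length and library depth) in each RNA library, and Thy1 ranged from 7.60 to 64.2 TPM. Of 8 markers of other cell types, 7 (Epcam, Cdh1, Pecam1, Cdh5, Ptprc, Myod1 and Adipoq) reached at most 2.14 TPM, and the epithelial keratin Krt18 ranged from 6.46 to 17.2 TPM. The labels do not say whether replicates were separate cultures, so p-values measure the spread between these libraries, which may be technical. Levels are relative to all RNA in a library. In these bulk samples, fewer cells of a kind and less RNA per cell cannot be told apart.

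Txnip had the widest range of group means among the 5 members, from a mean of 56.7 TPM at 44 °C for 2 h to 1.42 TPM at 2 h of KCl. It lay at 38.8 and 37.3 TPM in the heat controls, 55.1 and 58.2 TPM at 44 °C for 2 h, and 14.7 and 16.5 TPM at 42 °C for 8 h. In the other experiment it lay at 18.6 and 15.7 TPM in the controls. With H2O2 it lay at 3.66 and 3.71 TPM at 2 h and at 9.04 and 9.05 TPM at 7 h, and with KCl at 1.50 and 1.34 TPM at 2 h and at 5.74 and 6.10 TPM at 7 h. No stress group overlapped its own control: the 44 °C libraries were high and the libraries of the 5 other stresses were low. In the order of group means, each group stood clear of the next except the H2O2/KCl control (17.2 TPM ± 2.04, SD, n = 2) and 42 °C for 8 h (15.6 TPM ± 1.25, SD, n = 2), whose values overlapped.

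**Figure D1:**
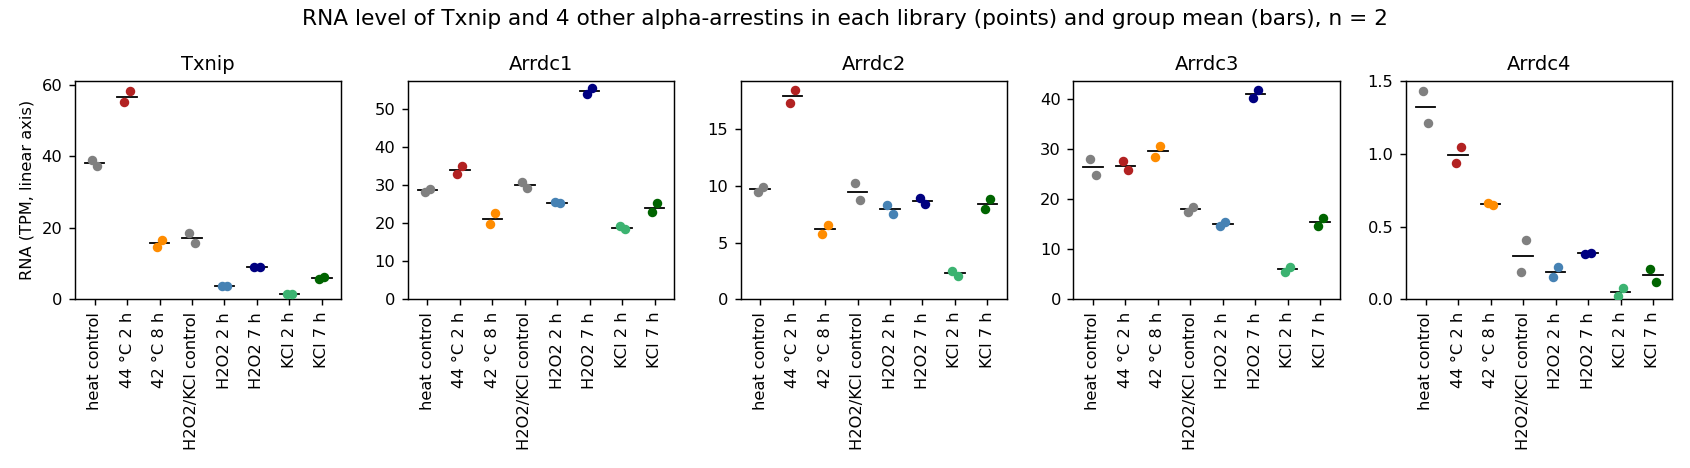
RNA level in TPM (linear axes starting at 0, 1 panel a gene with its own scale) in each of the 16 RNA libraries, with points for the 2 replicates of a group and a bar for their mean. Txnip sits at 55.1 and 58.2 TPM at 44 °C and at 1.50 and 1.34 TPM at 2 h of KCl, Arrdc1 and Arrdc3 are highest at 7 h of H2O2, and Arrdc4 stays at or under 1.43 TPM.

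Txnip RNA rose 1.42-fold at 44 °C for 2 h (log2 fold change 0.51 ± 0.06, SE, adjusted p = 2.19e-06) and fell 2.15-fold at 42 °C for 8 h (-1.10 ± 0.07, adjusted p = 5.74e-09), each against the heat control, in edgeR's quasi-likelihood test with Benjamini-Hochberg adjustment over all genes. The 2 heat treatments themselves differed by 1.61 ± 0.06 (SE) on the log2 scale, with the lower level at 42 °C (adjusted p = 3.75e-11). Temperature and duration changed together between them and cannot be told apart. At 2 h of H2O2 Txnip fell 4.66-fold (log2 fold change -2.22 ± 0.11, SE, adjusted p = 9.19e-10), which placed it at rank 38 from the lowest of 13256 genes. At 2 h of KCl it fell 11.3-fold (-3.50 ± 0.13, adjusted p = 1.16e-10), at rank 47 from the lowest of the same 13256 genes.

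At 7 h of either agent the Txnip level lay between its 2 h level and the control. Against the control Txnip remained lower by 1.80-fold at 7 h of H2O2 (log2 fold change -0.85 ± 0.10, SE, adjusted p = 2.18e-06) and by 2.71-fold at 7 h of KCl (-1.44 ± 0.10, adjusted p = 2.67e-08). Between 2 h and 7 h it rose 2.59-fold in H2O2 (log2 1.37 ± 0.11, SE, adjusted p = 8.34e-08) and 4.17-fold in KCl (2.06 ± 0.15, adjusted p = 2.95e-08). At equal times Txnip was 2.43-fold higher in H2O2 than in KCl at 2 h (log2 1.28 ± 0.16, SE, adjusted p = 1.38e-05) and 1.51-fold higher at 7 h (0.59 ± 0.11, adjusted p = 2e-04). H2O2 and KCl share their control libraries, so their comparisons with it are not independent. The labels give this control no time, and there is no separate control for 2 h and 7 h. Duration of the agent and time in culture or handling therefore cannot be told apart for any member.

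The unstressed controls of the experiments differed in Txnip as well. Txnip was 1.99-fold higher in the heat control than in the H2O2/KCl control (log2 0.99 ± 0.08, SE, adjusted p = 1.16e-08). Arrdc3 was 1.34-fold higher and Arrdc1 1.16-fold lower in the heat control, and the Arrdc2 difference of -0.12 ± 0.10 (SE) did not pass (adjusted p = 0.302). The Arrdc1 call was lost by DESeq2 (adjusted p = 0.0511) and by limma on log2(TPM + 1) (-0.06, adjusted p = 0.473). Arrdc4 had 62 and 47 counts in the heat controls and 6 and 10 in the H2O2/KCl controls. It passed the low-count filter of this comparison only through the heat libraries, so its difference is given as counts, without a test. Of the other 4 members 3 were called, against 53.9% of all genes. The experiment and the control's handling cannot be told apart here, and levels were set against the control of the same experiment throughout.

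The Txnip gene lies at chr3:96557957-96561857 on the plus strand (GRCm38.p6, RefSeq), and is overlapped there by the long noncoding gene Gm15441, which has no row in the RNA tables. The authors' use of strand in counting was not given in the sources used here, and without strand, reads of Gm15441 and of Txnip cannot be told apart in the Txnip row. The 250 bases before the start sites of Txnip and Arrdc4 are shown because these are the members best known as MondoA targets, and MondoA with Mlx binds paired E-box-like motifs 5 bases apart, searched here as a pair of CNCGNG, beside the single CACGTG box. Both lines read 5′ to 3′ on the gene's own strand, from chr3:96557707-96557956 (plus) and chr7:68749239-68749488 (minus) of GRCm38.p6, with matches to the searched motifs in capitals.
Txnip: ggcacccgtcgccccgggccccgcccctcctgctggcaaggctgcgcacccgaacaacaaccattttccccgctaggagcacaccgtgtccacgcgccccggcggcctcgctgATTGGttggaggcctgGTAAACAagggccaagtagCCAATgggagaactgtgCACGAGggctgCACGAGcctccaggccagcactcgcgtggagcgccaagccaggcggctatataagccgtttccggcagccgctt
Arrdc4: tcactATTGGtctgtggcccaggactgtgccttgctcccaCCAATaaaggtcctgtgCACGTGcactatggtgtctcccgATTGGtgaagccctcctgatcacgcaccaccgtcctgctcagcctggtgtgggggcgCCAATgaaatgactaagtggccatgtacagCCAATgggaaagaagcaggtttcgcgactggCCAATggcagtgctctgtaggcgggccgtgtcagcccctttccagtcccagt
Windows of 300 bases (250 before to 50 after the start) were searched on both strands, with overlapping matches allowed. The motifs were the CNCGNG pair, the CACGTG box, the heat shock element parts GAANNTTC and also TTCNNGAA, the forkhead motif TGTTTAC, and the CCAAT box. The Txnip window holds the CNCGNG pair at -85 to -69 from the start, as do 1.39% of all 32851 windows in the table, a TGTTTAC match at -121 to -115 (3.65% of windows) and 2 CCAAT matches (37.4% of windows have at least 1). The Arrdc4 window holds CACGTG at -193 to -188 (7.15% of windows) and 6 CCAAT matches. Of the other members, Arrdc2 has 3 CCAAT matches, 2 of the 3 Arrdc3 windows have 1 each, and the Arrdc1 window has none of the 6 motifs. GAANNTTC and also TTCNNGAA match in none of the 7 windows of the members (7.86% and 8.52% of all windows). These are matches of letters and no measure of binding.

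Arrdc2 RNA lay at 9.47 and 9.91 TPM in the heat controls, 17.3 and 18.4 TPM at 44 °C for 2 h, and 5.78 and 6.52 TPM at 42 °C for 8 h. It lay at 10.2 and 8.75 TPM in the H2O2/KCl controls and at 2.51 and 2.09 TPM at 2 h of KCl. The heat groups and the 2 h KCl group did not overlap their controls. Arrdc2 rose 1.74-fold at 44 °C (log2 fold change 0.80 ± 0.08, SE, adjusted p = 9.63e-07), fell 1.41-fold at 42 °C (-0.50 ± 0.10, adjusted p = 0.000456) and fell 4.03-fold at 2 h of KCl (-2.01 ± 0.14, adjusted p = 4.26e-08). By 7 h of KCl it was 3.71-fold above its 2 h level (log2 1.89 ± 0.15, SE, adjusted p = 6.79e-08), and its difference from control was then -0.12 ± 0.11 (SE, adjusted p = 0.38). In H2O2 it lay at 8.32 and 7.54 TPM at 2 h (log2 fold change -0.27 ± 0.11, SE, adjusted p = 0.0514) and at 8.95 and 8.36 TPM at 7 h (-0.05 ± 0.11, adjusted p = 0.704). The H2O2 value at 2 h passed the threshold without H2O2 2 h replicate 1 (adjusted p = 0.0439) or control replicate 2 (adjusted p = 0.0342). At 2 h Arrdc2 was 3.33-fold higher in H2O2 than in KCl (log2 1.73 ± 0.15, SE, adjusted p = 3.74e-07), whereas at 7 h the difference between the agents was 0.07 ± 0.12 (adjusted p = 0.614).

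Arrdc3 RNA lay at 17.5 and 18.4 TPM in the H2O2/KCl controls. With H2O2 it lay at 14.6 and 15.5 TPM at 2 h and at 40.2 and 41.9 TPM at 7 h, and with KCl at 5.36 and 6.54 TPM at 2 h and at 14.6 and 16.3 TPM at 7 h. The 7 h H2O2 libraries were the highest of the series and the 2 h KCl libraries the lowest, both clear of the control. Arrdc3 rose 2.41-fold at 7 h of H2O2 (log2 fold change 1.27 ± 0.07, SE, adjusted p = 1.23e-09) and fell 2.78-fold at 2 h of KCl (-1.47 ± 0.08, adjusted p = 5.44e-09). It fell by 1.20-fold at 2 h of H2O2 (-0.26 ± 0.08, adjusted p = 0.00957), which did not pass without control replicate 2 (adjusted p = 0.0637), and its difference at 7 h of KCl was -0.11 ± 0.08 (adjusted p = 0.196). Between 2 h and 7 h it rose 2.89-fold in H2O2 (log2 1.53 ± 0.07, SE, adjusted p = 2.44e-10) and 2.56-fold in KCl (1.36 ± 0.09, adjusted p = 7.7e-09). Arrdc3 was 2.61-fold higher in H2O2 than in KCl at 7 h (log2 1.39 ± 0.08, SE, adjusted p = 4.61e-10).

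In heat, Arrdc3 went the other way from Txnip at 42 °C. It lay at 28.0 and 24.9 TPM in the heat controls, 27.6 and 25.9 TPM at 44 °C for 2 h and 28.5 and 30.7 TPM at 42 °C for 8 h. The 44 °C values fell within the range of the controls (log2 fold change -0.04 ± 0.06, SE, adjusted p = 0.559). At 42 °C it rose 1.25-fold (0.32 ± 0.06, adjusted p = 0.000266), a difference that was 0.16 on the log2(TPM + 1) scale in limma, with adjusted p = 0.0726, the highest over its alternatives.

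Arrdc1 RNA rose at 7 h of H2O2 and was lower than control at both times of KCl. It lay at 30.8 and 29.2 TPM in the H2O2/KCl controls. With H2O2 it lay at 25.7 and 25.3 TPM at 2 h and at 54.0 and 55.6 TPM at 7 h, and with KCl at 19.2 and 18.4 TPM at 2 h and at 22.9 and 25.4 TPM at 7 h. The 7 h H2O2 libraries were the highest and those of both KCl times and of 2 h H2O2 lay below the controls. Arrdc1 rose 1.93-fold at 7 h of H2O2 (log2 fold change 0.95 ± 0.07, SE, adjusted p = 2.9e-08) and fell 1.48-fold at 2 h of KCl (-0.56 ± 0.08, adjusted p = 3.66e-05). Its smaller falls were -0.25 ± 0.08 (SE) at 2 h of H2O2 (adjusted p = 0.0128) and -0.23 ± 0.08 at 7 h of KCl (adjusted p = 0.0158). Between 2 h and 7 h Arrdc1 rose 2.29-fold in H2O2 (log2 1.20 ± 0.07, SE, adjusted p = 3.44e-09) and 1.26-fold in KCl (0.33 ± 0.08, adjusted p = 0.00279).

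In heat Arrdc1 lay at 28.3 and 29.0 TPM in the controls, 33.1 and 35.0 TPM at 44 °C for 2 h and 19.8 and 22.6 TPM at 42 °C for 8 h. It rose by 0.18 ± 0.07 (SE) on the log2 scale at 44 °C (adjusted p = 0.0359) and fell by 0.26 ± 0.07 at 42 °C (adjusted p = 0.00673). With no library left out, the 44 °C call was lost by DESeq2 (0.185, adjusted p = 0.11). It was also lost with all 16 RNA libraries in a single edgeR fit (0.132, adjusted p = 0.116). These small Arrdc1 values kept their direction when 1 library was left out, but some lost the call, with fewer libraries and a larger SE. The 44 °C value was 0.12 without 44 °C replicate 2 (adjusted p = 0.215), 0.16 without heat control replicate 1 (0.133) and 0.19 without heat control replicate 2 (0.0678). The 42 °C value was -0.18 without 42 °C replicate 1 (0.112). The 2 h H2O2 value was -0.25 without H2O2 replicate 2 (0.0592) and -0.20 without control replicate 1 (0.104). The 7 h KCl value was -0.17 without KCl replicate 1 (0.15) and -0.18 without control replicate 1 (0.12).

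Arrdc4 was the least abundant member, with 1.43 and 1.21 TPM in the heat controls, 0.94 and 1.05 TPM at 44 °C for 2 h, and 0.66 and 0.65 TPM at 42 °C for 8 h. It fell 1.99-fold at 42 °C for 8 h (log2 fold change -0.99 ± 0.26, SE, adjusted p = 0.00418), from counts of 62 and 47 to counts of 25 and 18, and its difference at 44 °C was 0.03 ± 0.22 (adjusted p = 0.923). In the H2O2 and KCl experiment the Arrdc4 counts lay between 1 and 10 in the 10 libraries, 52 counts in all, which did not pass the filter on low counts. They were 6 and 10 in the controls, 6 and 6 at each time of H2O2, 1 and 1 after 2 h in KCl, and 5 and 5 after 7 h in KCl. A change of Arrdc4 with H2O2 or KCl was therefore not tested at this depth.

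**Figure D2:**
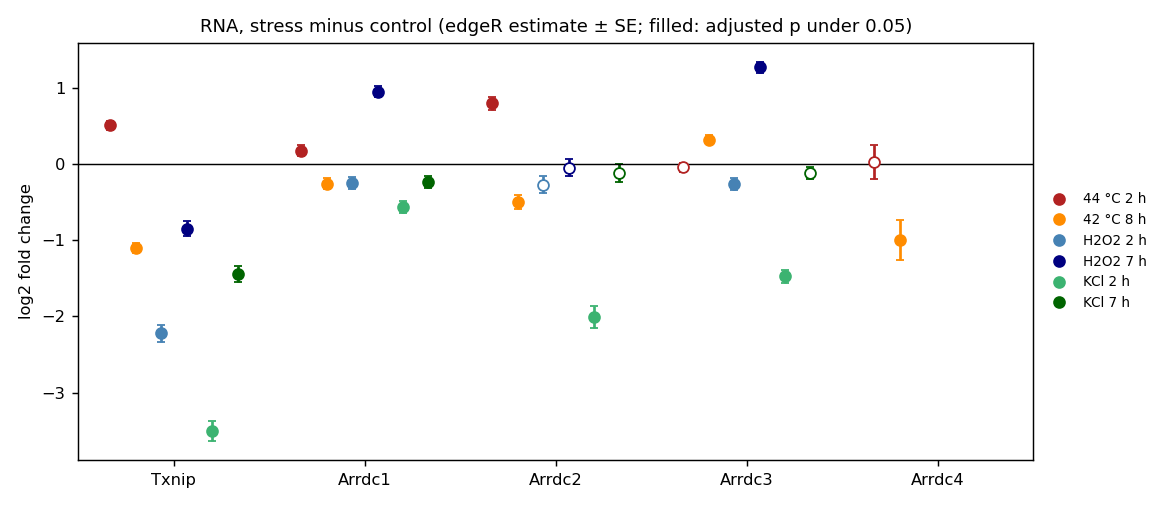
Log2 fold change of RNA against the control of the same experiment (linear axis in log2 units), edgeR estimate ± SE from 2 replicates a group, with filled points where the adjusted p passed 0.05. Txnip is above 0 at 44 °C (0.51) and below 0 for the 5 other stresses, down to -3.50 at 2 h of KCl, while Arrdc1 and Arrdc3 are above 0 at 7 h of H2O2 (0.95 and 1.27). Arrdc4 was tested in heat only.

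Most genes changed in these comparisons, so the share of members called is read against all genes. Members were called in 3 of 5 tests at 44 °C for 2 h against 71.0% of all genes, and in 5 of 5 at 42 °C for 8 h against 63.6%. With H2O2 and KCl the counts were 3 of 4 at 2 h of H2O2 against 53.9%, 3 of 4 at 7 h of H2O2 against 70.5%, 4 of 4 at 2 h of KCl against 54.2%, and 2 of 4 at 7 h of KCl against 68.8%. Where a log2 fold change of at least 1 in size was also asked, the count was 3 of 4 members at 2 h of KCl against 12.7% of genes. By that rule 1 member passed at 42 °C (7.92% of genes), at 2 h of H2O2 (13.3%), at 7 h of H2O2 (23.3%) and after 7 h in KCl (18.4%), and none at 44 °C (11.0%). Between times or heat treatments, 5 of 5 members differed between 42 °C and 44 °C (75.1% of genes), 3 of 4 between 7 h and 2 h of H2O2 (73.4%) and 4 of 4 between 7 h and 2 h of KCl (68.8%). Between agents, 4 of 4 differed at 2 h (51.3% of genes) and 3 of 4 at 7 h (78.4%).

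Footprints gave fewer counts for the members than RNA. Txnip had 40 and 13 footprint counts in the controls (8.48 and 2.95 TPM), 6 and 28 at 2 h of H2O2 (3.24 and 4.39 TPM), and 41 and 25 at 7 h of H2O2 (11.1 and 6.34 TPM). It had 8 and 5 at 2 h of KCl (2.27 and 1.37 TPM), and 15 and 5 at 7 h of KCl (4.66 and 1.18 TPM). The control libraries were far apart and their range covered the 2 h H2O2 values, while the 2 h KCl values lay below both controls. Against control, Txnip footprints differed by -0.44 ± 0.58 (SE) on the log2 scale at 2 h of H2O2 (adjusted p = 0.757), 0.48 ± 0.53 at 7 h of H2O2 (0.541), -1.59 ± 0.66 at 2 h of KCl (0.189) and -1.01 ± 0.62 at 7 h of KCl (0.265). None of these Txnip differences passed the test.

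**Figure D3:**
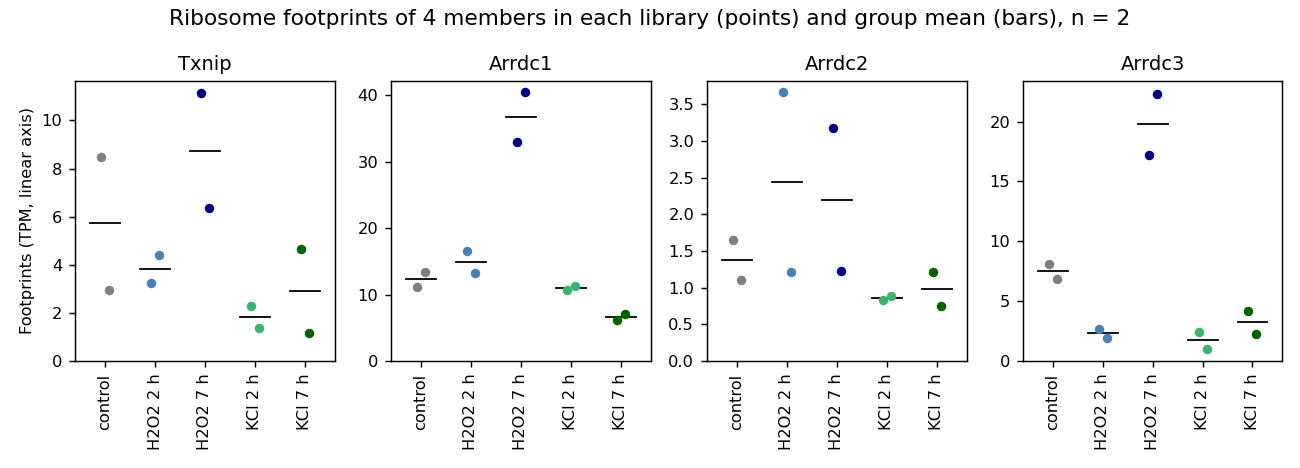
Footprint level in TPM (linear axes starting at 0, 1 panel a gene with its own scale) in each of the 10 footprint libraries, with points for the 2 replicates of a group and a bar for their mean. Arrdc1 (32.9 and 40.4 TPM) and Arrdc3 (17.2 and 22.3 TPM) are highest at 7 h of H2O2, and the Txnip controls lie apart at 8.48 and 2.95 TPM.

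Arrdc1 footprints lay at 11.2 and 13.5 TPM in the controls and at 32.9 and 40.4 TPM at 7 h of H2O2. They rose 3.02-fold (log2 fold change 1.59 ± 0.27, SE, adjusted p = 0.000815), beside the 1.93-fold rise of Arrdc1 RNA. Their 2 h H2O2 values were 16.6 and 13.2 TPM (0.25 ± 0.30, adjusted p = 0.723), so that 7 h stood 2.54-fold above 2 h (adjusted p = 0.00308, and 0.051 without 2 h H2O2 replicate 2). In KCl, Arrdc1 footprints lay at 10.7 and 11.3 TPM at 2 h (-0.09 ± 0.30, adjusted p = 0.916) and at 6.14 and 7.11 TPM at 7 h (-0.88 ± 0.32, adjusted p = 0.0662).

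Arrdc3 footprints lay at 8.14 and 6.83 TPM in the controls. With H2O2 they lay at 2.70 and 1.93 TPM at 2 h and at 17.2 and 22.3 TPM at 7 h, and with KCl at 2.44 and 1.03 TPM at 2 h and at 4.21 and 2.24 TPM at 7 h. By TPM, none of the 4 stress groups overlapped the control, with the 7 h H2O2 libraries high and the others low. Arrdc3 footprints rose 2.35-fold at 7 h of H2O2 (log2 fold change 1.23 ± 0.36, SE, adjusted p = 0.0214) and fell 4.17-fold at 2 h of KCl (-2.06 ± 0.49, adjusted p = 0.024). Both kept their direction with 1 library fewer, but neither call held throughout. With no replicate left out, the rise did not pass by DESeq2 (1.24, adjusted p = 0.0772). The fall did not pass in edgeR with only the groups compared (-2.05, adjusted p = 0.0635). The rise was 1.40 and 0.94 without 7 h H2O2 replicates 1 and 2 (adjusted p = 0.0532 and 0.211), and 1.35 and 1.08 without control replicates 1 and 2 (0.0608 and 0.12). The fall was -1.84 without control replicate 1 (0.13) and -1.50 without 2 h KCl replicate 2 (0.192). The Arrdc3 value at 2 h of H2O2 was -1.82 ± 0.47 (SE, adjusted p = 0.0688) and at 7 h of KCl -1.19 ± 0.44 (adjusted p = 0.0711). From 2 h to 7 h of H2O2 Arrdc3 footprints rose 8.28-fold (log2 3.05 ± 0.45, SE, adjusted p = 0.000288), beside the 2.89-fold rise of its RNA over the same interval. The 2 h footprint level rested on 4 and 12 counts. Whether footprints relative to RNA differed between 7 h and 2 h was not tested.

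Arrdc2 had 2 to 12 footprint counts in a library and Arrdc4 0 to 3. None of the Arrdc2 differences passed, and Arrdc4 was not tested: it was at 0 in 7 of the 10 footprint libraries, which allows a level of up to 0.833 to 2.05 CPM (counts scaled to library size, with a limit of 3 counts of each library's total, counting error only). Of the 4 members tested in footprints, none was called at 2 h of H2O2 (1.91% of all genes), 2 at 7 h of H2O2 (27.7%), 1 at 2 h of KCl (6.86%) and none at 7 h of KCl (20.4%). Between 7 h and 2 h, 2 of 4 were called in H2O2 (29.8% of genes) and none in KCl (20.6%).

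Footprints relative to RNA, called translational efficiency, were compared in 1 model over both kinds of library. For Txnip the ratio of mean footprint TPM to mean RNA TPM was 0.333 in the control, 1.03 at 2 h of H2O2, 0.966 at 7 h of H2O2, 1.28 at 2 h of KCl and 0.493 at 7 h of KCl. The ratio of Txnip was higher than in control at 2 h of H2O2 by 3.38-fold (log2 1.76 ± 0.53, SE, adjusted p = 0.0388), where RNA was 4.66-fold lower and the footprint difference did not pass. This call was not stable. Over 13 alternatives the Txnip value stayed between 1.24 and 2.69, with adjusted p from 0.00806 to 0.368, and it passed in 4. It was lost without footprint replicate 1 (adjusted p = 0.0551) or 2 (0.368) of 2 h H2O2, without footprint control replicate 2 (0.0991), or without any one RNA replicate of 2 h H2O2 (0.0711 and 0.0818) or control (0.0923 and 0.0503). The other Txnip differences were 1.32 ± 0.43 (SE) at 7 h of H2O2 (adjusted p = 0.0678), 1.87 ± 0.76 at 2 h of KCl (0.116) and 0.40 ± 0.59 at 7 h of KCl (0.76). Without footprint control replicate 1, in which Txnip had its 40 counts, the values at 7 h of H2O2 (2.25, adjusted p = 0.0123) and 2 h of KCl (2.80, adjusted p = 0.0282) passed.

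Arrdc3 moved the other way at 2 h of H2O2. Its ratio of mean footprint TPM to mean RNA TPM was 0.417 in the control and 0.154 at 2 h of H2O2, a 3.07-fold lower translational efficiency (log2 -1.62 ± 0.40, SE, adjusted p = 0.0157). The Arrdc3 call was lost by limma on log2(TPM + 1) (-1.12, adjusted p = 0.0707). It was also lost by limma voom with a spread for each kind of library (-1.53, adjusted p = 0.0936). Its adjusted p ranged from 0.00309 to 0.139 over 13 alternatives, and the call was lost without footprint replicate 2 of 2 h H2O2 (adjusted p = 0.139) or footprint control replicate 1 (0.0711). At 7 h of H2O2 the Arrdc3 difference was -0.04 ± 0.27 (SE, adjusted p = 0.953), at 2 h of KCl -0.61 ± 0.46 (adjusted p = 0.425) and at 7 h of KCl -1.07 ± 0.37 (adjusted p = 0.098). For Arrdc1 and Arrdc2 no translational efficiency difference passed, the nearest being Arrdc1 at 7 h of H2O2 with 0.65 ± 0.22 (adjusted p = 0.0715, and 0.0423 without footprint replicate 1 of 7 h H2O2). Members called were 2 of 4 at 2 h of H2O2 (11.4% of all genes), and none of 4 at 7 h of H2O2 (9.27%), 2 h of KCl (12.8%) and 7 h of KCl (5.57%). Replicates 1 and 2 of 2 h H2O2 were the shallowest and the deepest footprint libraries (1460751 and 5168537 counts).

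**Figure D4:**
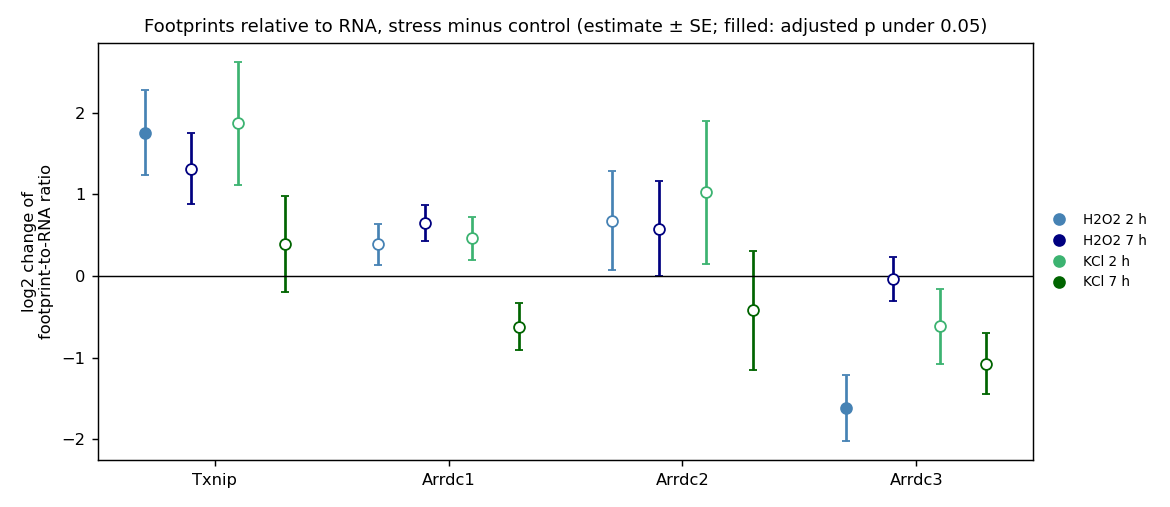
Log2 change of the footprint-to-RNA ratio against control (linear axis in log2 units), edgeR estimate ± SE from 2 RNA and 2 footprint libraries a group, with filled points where the adjusted p passed 0.05. At 2 h of H2O2 Txnip is at 1.76 and Arrdc3 at -1.62, the only filled points, and the error bars of Txnip and Arrdc2 are wide.

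Partners of the family were read from lists of genes, whose counts stand beside the shares of all genes called in each direction. Of all genes, 35.4% rose and 35.7% fell at 44 °C, 31.7% rose and 31.9% fell at 42 °C, and 27.3% rose and 26.5% fell at 2 h of H2O2. At 7 h of H2O2 39.4% rose and 31.1% fell, at 2 h of KCl 27.2% rose and 27.0% fell, and at 7 h of KCl 37.2% rose and 31.6% fell. With lists of 5 to 12 tested genes, the counts describe these genes and show nothing particular to a list. Among 13 genes for the control of Txnip and its partners, of which 12 were tested for RNA, 7 rose and 2 fell at 44 °C, and 5 rose and 3 fell at 42 °C. In that list 4 rose and 5 fell at 2 h of H2O2, 6 rose and 3 fell at 7 h of H2O2, and 4 rose and 4 fell at each time of KCl. The list's median log2 fold change was 0.17 at 44 °C and -0.01 at 2 h of H2O2, its highest and lowest, beside 0 and -0.001 over all genes. Mlxip RNA, which encodes MondoA, was at 14.6 and 15.1 TPM in the H2O2/KCl controls and 14.0 and 15.6 TPM at 2 h of H2O2, overlapping the controls. Mlxip RNA rose by 0.44 on the log2 scale at 44 °C (adjusted p = 8.48e-07) and by 0.60 at 7 h of KCl (adjusted p = 3.24e-06). It fell at 2 h of KCl (-0.25, adjusted p = 0.00956). Mlx RNA lay at 43.9 and 42.8 TPM in the H2O2/KCl controls. It was lower at 2 h of H2O2 (37.7 and 37.2 TPM) and of KCl (32.8 and 33.2 TPM). At 7 h it was still below both controls, at 40.0 and 36.8 TPM in H2O2 and 35.9 and 37.5 TPM in KCl. A link of these levels to Txnip was not tested. Mlxip footprints fell at 2 h of KCl from 5.36 and 7.49 TPM to 1.77 and 2.92 TPM (log2 fold change -1.48, adjusted p = 0.0421). Txnrd1, the reductase that recharges the thioredoxin bound by Txnip, rose at both times of H2O2 (log2 fold change 1.55, adjusted p = 1.7e-10, and 1.88, adjusted p = 5.53e-12), from 252.8 and 275.9 TPM in the controls to 789.2 and 754.5 TPM at 2 h.

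Ddit4, a stress-induced inhibitor of mTORC1, fell at 42 °C for 8 h (log2 fold change -1.08, adjusted p = 1.17e-09) and rose at 7 h of H2O2 (2.07, adjusted p = 1.62e-11), where Txnip was lower than control. Hk2, a hexokinase that makes the glucose phosphate sensed by MondoA, rose at 2 h of H2O2 (1.53, adjusted p = 1.67e-09). Prkaa2, a catalytic subunit of AMPK, which phosphorylates Txnip, rose at 7 h of H2O2 (3.67, adjusted p = 1.74e-12) from 0.70 and 0.76 TPM to 8.22 and 9.41 TPM.

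Of the 9 NEDD4-type ligases, the enzymes that alpha-arrestins recruit, 8 were tested for RNA. At 44 °C 2 rose and 5 fell, and at 42 °C 4 rose and none fell. Counts in H2O2 and KCl were as follows: at 2 h of H2O2 4 rose and 1 fell, at 7 h of H2O2 4 rose and 3 fell, at 2 h of KCl 6 rose and none fell, and at 7 h of KCl 5 rose and 1 fell. At 2 h of KCl, where no ligase RNA fell, none of the 7 ligases tested in footprints rose and 3 fell (1.79% and 5.06% of all genes), and the same counts held for translational efficiency (3.58% and 9.18%). Wwp1 rose at 7 h of H2O2, the condition in which Arrdc1 and Arrdc3 were highest, by 1.54 on the log2 scale in RNA (adjusted p = 3.16e-10) and 1.52 in footprints (adjusted p = 0.00224). Smurf2 footprints fell at 2 h of KCl from 11.9 and 10.6 TPM to 3.92 and 4.24 TPM (log2 fold change -1.32, adjusted p = 0.00783), and its translational efficiency was lower by 1.86 on that scale (adjusted p = 1.83e-05).

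Among the 8 cargo and trafficking partners, 4 rose and none fell at 44 °C, and 1 rose and 3 fell at 42 °C. In this group 3 rose and none fell at 2 h of H2O2, 4 rose and 3 fell at 7 h of H2O2, 5 rose and 1 fell at 2 h of KCl, and 3 rose and 3 fell at 7 h of KCl. Slc2a1, the GLUT1 transporter internalised with Txnip, rose at 7 h of H2O2 (log2 fold change 1.04, adjusted p = 2.12e-09) and 7 h of KCl (1.46, adjusted p = 2.61e-10), from 93.0 and 97.0 TPM in the controls to 177.3 and 193.9 TPM and to 235.3 and 253.5 TPM. In heat, Slc2a1 and Txnip RNA moved the same way. Slc2a1 lay at 102.5 and 110.2 TPM in the heat controls, 156.9 and 149.8 TPM at 44 °C and 53.7 and 54.4 TPM at 42 °C. Itgb4, the integrin beta 4 bound by Arrdc3, rose at 7 h of H2O2 in RNA from 1.01 and 0.90 TPM to 11.3 and 10.6 TPM (3.59, adjusted p = 1.62e-11).

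Of 8 other genes with an arrestin fold, 5 were tested in heat and 6 in H2O2 and KCl. At 44 °C 3 rose and none fell, at 42 °C 1 rose and 2 fell, at each time of H2O2 and at 2 h of KCl 1 rose and 2 fell, and at 7 h of KCl 5 rose and none fell. Arrb1, beta-arrestin 1, fell at 7 h of H2O2 (log2 fold change -1.79, adjusted p = 9.61e-11) and rose at 7 h of KCl (2.40, adjusted p = 4.99e-12). Its RNA lay at 9.62 and 10.7 TPM in the controls, 2.76 and 2.81 TPM at 7 h of H2O2 and 48.0 and 51.3 TPM at 7 h of KCl, so that these groups did not overlap.

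Genes with the pattern most like each member were ranked by Pearson's correlation over the 16 RNA libraries of log2 CPM, taken relative to the control of the same experiment. The libraries of a group are replicates and share their group's level, so the values are descriptive. The 5 genes most like Txnip were Sall2 (r = 0.993), Osbpl7 (0.982), Zfp383 (0.981), Zfp324 (0.973) and Zfp60 (0.963), with Arrdc2 at 0.880, Arrdc3 at 0.587 and Arrdc1 at 0.534. Sall2, a zinc finger gene, was lower than control by 2.31 on the log2 scale at 2 h of KCl and by 1.51 at 2 h of H2O2, and stood at 0.09 at 44 °C. Those most like Arrdc1 were Sap30bp, Ddx19b, Nat6, St3gal4 and E2f1 (r from 0.978 to 0.971), with Arrdc3 at 0.836. Arrdc2 was most like Rnf34, Pcgf1, Urgcp, Zfp956 and Zbtb3 (0.975 to 0.961), and Arrdc3 most like Naa40, Zfp422, Hus1, Zfp994 and Cish (0.976 to 0.951). These lists depend on the measure. Of each 5 genes, 3 stayed among the 5 nearest for Txnip and 1 for each of Arrdc1, Arrdc2 and Arrdc3 under Spearman's correlation, and 3 for Txnip and 2 for each of the others over the 12 stress libraries alone. The order of the members turned as well: by Spearman's rho Arrdc1 was nearer to Txnip (0.812) and Arrdc2 (0.809) than to Arrdc3 (0.653). Arrdc4 was below the minimum mean of 1 CPM and was not ranked.

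The authors' calls of DoGs, transcripts that continue past the end of a gene, covered 6399 pairs of neighbouring genes in the 16 RNA libraries, and 3 of these pairs held a member. From Arrdc1 towards Ehmt1 a DoG was called in 8 of 16 libraries: both heat controls, H2O2/KCl control replicate 1, both 2 h H2O2 libraries, 7 h H2O2 replicate 2 and both 7 h KCl libraries. The calls fell in some control and some stress libraries, but in no heat-stressed library and no 2 h KCl library. Of all pair and library combinations, 28.5% had a DoG call. From Mrpl41 towards Arrdc1 a DoG was called in 7 h H2O2 replicate 1 alone, and from Nr2f2 towards Arrdc4 in 2 h KCl replicate 1 alone. None of the 3 pairs had a read-in call, which marks transcription that enters the downstream gene and was made in 1.38% of all combinations. No listed pair held Txnip, Arrdc2 or Arrdc3.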

How the data were processed

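PolyA-selected RNA (16 libraries) and ribosome footprints (10 libraries) of NIH3T3 cells were grouped by the labels, 2 libraries a group. The authors deposited expected counts per gene from RSEM, all whole numbers, and TPM for the same libraries. The submitters' processing notes name STAR, RSEM, Bowtie and mm10; versions, annotation, strand setting and footprint filters were not given in the sources used here. The authors also deposited DoG and read-in calls and a read-in estimate as a ratio per pair and library, with a formula not given in the sources used here. A further 12 columns could be tied to no labelled sample and stayed out. RNA libraries used NEB kit E7760, per the labels' protocols.

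The members and gene lists were chosen with earlier results of these data known. Counts were tested with edgeR 4.0.16 (R 4.3.3; TMM, filterByExpr, quasi-likelihood F test, Benjamini-Hochberg over all genes tested, threshold 0.05), fitting the heat RNA, the H2O2 and KCl RNA and the footprints separately, and all RNA together for the controls. The SE was taken from the fold change and its F statistic. Translational efficiency was the interaction of kind of library and condition over 20 libraries, for the 10480 genes that passed the filter in both kinds. Models were tested on simulated data. Alternatives used DESeq2 1.42.0, limma 3.58.1 on log2(TPM + 1), other size factors, no filter, other sets of libraries, a replicate block and leaving out each replicate. Named genes were the members, listed genes called with a log2 fold change of at least 1 in size, and the 5 most correlated genes of each member. Levels of Mlxip and Mlx were added after their values were seen. Sequences and positions come from RefSeq tables of GRCm38.p6, in which all 5 members matched by symbol.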

Additional observations from a re-analysis of the deposited data

Results flagged for a closer look

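The level of a member under an agent differed between 2 h and 7 h in 9 of 16 tests of 4 members, by the edgeR test of 7 h against 2 h. No control was matched to either time. Over all genes that test called 73.4% in H2O2 RNA, 68.8% in KCl RNA, 29.8% in H2O2 footprints and 20.6% in KCl footprints. In H2O2, RNA was higher at 7 h by 1.37 on the log2 scale for Txnip, 1.20 for Arrdc1 and 1.53 for Arrdc3. In KCl, RNA was higher at 7 h by 2.06 for Txnip, 0.33 for Arrdc1, 1.89 for Arrdc2 and 1.36 for Arrdc3. In footprints of H2O2, the 7 h level was higher by 1.34 for Arrdc1 and 3.05 for Arrdc3. Both libraries of 7 h were compared with both of 2 h in each case.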

How the results depend on the processing

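Of 1007 values for single members under an alternative setting, 931 kept their side of the threshold. A further 59 kept their direction and lost the call, and 17 kept it and gained a call. No value reversed that was called in either setting. The 931 include uncalled values that changed sign. Txnip footprints at 2 h of H2O2 (-0.44), for example, ranged from -0.976 to 0.464 over the alternatives. The counts of members called below moved by more than 1.5 times. Asking also for a log2 fold change of at least 1 left 0 members at 44 °C, 1 at 42 °C, at 2 h of H2O2, at 7 h of H2O2, at 7 h of KCl and between the controls (there Arrdc4, which passed the filter only through the heat libraries), and 3 between the heat treatments. In footprints, 1 member was called at 2 h of H2O2 with no filter, 1 at 7 h of H2O2 by DESeq2, 0 at 2 h of KCl with only the groups compared, and 1 at 7 h of KCl by limma. For translational efficiency, limma and voom called 0 at 2 h of H2O2, DESeq2 and the fit with no filter called 1 at 7 h of H2O2, and DESeq2 called 1 at 2 h and 1 at 7 h of KCl. The cause was not tested.

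Leaving out 1 replicate gave 1 member called in RNA at 7 h of KCl at the lowest and 2 at the highest. In footprints it gave 1 at 7 h of H2O2, 1 to 2 between 7 h and 2 h of H2O2, and 0 to 1 at 2 h of KCl. For translational efficiency it gave 0 to 1 for both times of H2O2 and for the 2 h time of KCl. The labels do not say that a replicate number marks a shared batch, and not every pair of groups correlated above 0.1, so the numbers were not taken to pair the samples: deviations of same-numbered libraries correlated at -0.053 to 0.054 in H2O2 and KCl RNA, -0.025 to 0.117 in heat RNA and -0.384 to 0.417 in footprints, where 6 of 10 pairs of groups lay above 0.1 and the negative ones all involved 2 h of H2O2. With the replicate block, the translational efficiency of Txnip at 7 h of H2O2 passed (1 member called, adjusted p = 0.0247), as did Arrdc2 RNA at 2 h of H2O2 (adjusted p = 0.0436). Footprint depth limits Arrdc2 and Arrdc4 most. It also limits Arrdc3 at 2 h, where Arrdc3 had 4 and 12 footprint counts in H2O2 and 9 and 3 in KCl.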
